A study of Mus musculus with 25 samples.

Results

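The fragments described here were marked by Mef2c with MAML and by Mef2c with p300, and by no N1 complex. They were chosen by presence on the deposited lists: the same fragment, with identical chromosome, start and end, stands in both Mef2c lists and in none of the 4 N1 lists. There were 5480 of them on chromosomes 1 to 19 and X, out of 96405 distinct fragments over the 6 lists, and they are called Mef2c-only fragments below. They make up 10.9% of the 50380 Mef2c/MAML fragments, 19.1% of the 28757 Mef2c/p300 fragments and 38.9% of the 14105 fragments found in both Mef2c lists. The remaining 8625 fragments of both Mef2c lists also stand in 1 or more N1 list and are called the N1-sharing fragments. Neither name covers the 22724 fragments found only in the Mef2c/MAML list or the 11782 found only in the Mef2c/p300 list.

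All libraries come from mK4, a mouse cell line of embryonic kidney mesenchyme. In split DamID (SpDamID), the DNA methylase Dam of bacteria is cut into parts that do not work alone, each of 2 proteins carries 1 part, and GATC sites are methylated where the proteins meet. The fusions are labelled Mef2c-D with MAML-AM-Ert2 and Mef2c-D with p300-AM-Ert2, 1 library each. The N1 (Notch1) pairs are labelled N1-D with RBP-AM-Ert2, MAML-AM-Ert2 and p300-AM-Ert2, 3 libraries each, and N1-D with N1-AM-Ert2, 2 libraries. Every list was scored over Dam, which has 3 control libraries. FAIRE, which recovers open chromatin, has 3 N1wt libraries, 3 controls and 1 N1wt input, and ChIP of myc-tagged N1 has 1 library and 1 input. No treatment or time is given in the labels. The strain label is CD3 for the Mef2c/MAML library, CD2 for 1 N1/N1 library and CD1 for the others, Mef2c/p300 included. Since all carry the same cell line label, whether these strain labels stand for a difference between libraries is not known.

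Mef2c is a MADS-box transcription factor that binds A/T-rich DNA and is best known from muscle, neural crest and neurons. MAML is the co-activator that docks on the complex of cleaved Notch with its DNA-binding partner RBP, and it is also known to bind and co-activate Mef2c. The acetyltransferase p300 is recruited by MAML and binds Mef2 proteins as well. Fragments listed for both Mef2c pairs and for no N1 pair were therefore scored with the same co-activators as the Notch complex, but beside Mef2c in the place of N1.

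Each list holds 1 value per fragment, and each Mef2c list comes from 1 library. No value has a replicate error, and no difference below has a test between samples. Intervals are exact Clopper-Pearson 95% intervals over fragments unless another is named. They cover counting error only, since neighbouring fragments are not independent. Absence from an N1 list means only that no score was listed at the confidence level named in the file headers. A difference between complexes and a difference between libraries, or in the number of libraries, cannot be told apart.

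The highest scores among the Mef2c-only fragments lay at a single place. Of the 10 with the best lower percentile of both scores, 6 lay between 83732121 and 83802236 on chromosome 13 (mm9), a stretch of 70116 bp. The scores here are the authors' own, on a scale that the sources used here do not give. The fragment from 83772512 to 83772888 had a Mef2c/MAML score of 853, the first of that list, and a Mef2c/p300 score of 837, the third of its list. The fragment from 83801052 to 83802127 scored 786 with MAML and 867 with p300, the first of the p300 list. Its neighbour without a gap, 83802128 to 83802236, scored 789 and 833 and was also the shortest Mef2c-only fragment, at 109 bp. The fragments 83795844 to 83796090, 83732121 to 83732410 and 83792178 to 83792542 had Mef2c/MAML scores of 831, 770 and 679 and Mef2c/p300 scores of 817, 785 and 644. A seventh in the same stretch, 83794740 to 83795384, scored 624 and 742.

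That stretch thus held 5 of the 50 highest Mef2c/MAML scores and 6 of the 50 highest Mef2c/p300 scores of the whole lists, where Mef2c-only fragments took 10 and 11 places in all. All 7 Mef2c fragments there were free of N1, 6 of them by the choice of the stretch. Of all fragments in both Mef2c lists 38.9% were free of N1. None of the 7 lay in total FAIRE, which held only 7.26% of all Mef2c-only fragments, so none among so few says little. Of the 7, 5 were shorter than 382 bp, the 5th percentile for Mef2c-only fragments. The only other listed fragments in the stretch were a pair of N1/N1 fragments, scoring 124 and 340. The nearest FAIRE region was 360888 bp or more away from each of the 6 leading fragments. The Mef2c gene is known to lie on mouse chromosome 13. No mm9 annotation was used here, so whether these fragments carry sequence of the gene, which the Mef2c fusion also contains, was not tested.

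**Figure D1:**
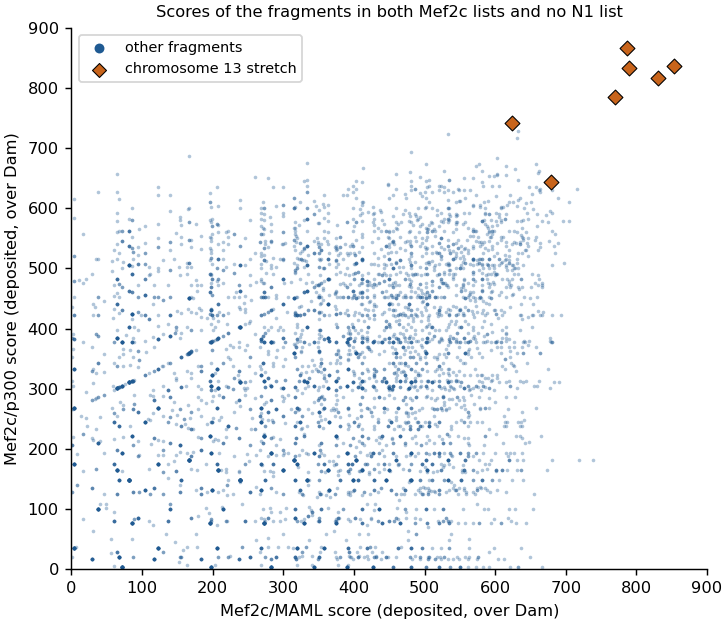
Deposited Mef2c/MAML score (horizontal axis) against deposited Mef2c/p300 score (vertical axis) for each of the 5480 Mef2c-only fragments, with the 7 fragments of the chromosome 13 stretch as diamonds. Of those 7, 5 stand apart at scores of 770 or more in both lists, and the other points line up in rows and columns because many fragments have the same score.

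Outside chromosome 13, the leading Mef2c-only fragments were spread over chromosomes. The fragment from 138187727 to 138188242 on chromosome 1 scored 676 with MAML and 645 with p300, 112147047 to 112147757 on chromosome 2 scored 716 and 633, 148214816 to 148215357 on chromosome X scored 681 and 630, and 96982319 to 96982803 on chromosome 8 scored 664 and 632. None of these 4 lay in FAIRE or in N1 ChIP. Total FAIRE held only 7.26% of all Mef2c-only fragments and N1 ChIP 0.201%, so none among 4 says little. The nearest FAIRE regions were 21497 to 65599 bp away, and the nearest N1 fragments were 1686 to 16818 bp away.

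Mef2c-only fragments had Mef2c scores between those of fragments in a single Mef2c list and those of the N1-sharing ones. Their Mef2c/MAML score had a median of 365 (quartiles 214 and 491), against 502 (373 and 586) for the N1-sharing fragments. The Mef2c/p300 medians were closer, at 313 (175 and 452) and 347 (200 and 465). Fragments of the Mef2c/MAML list alone had a median of 269, and those of the Mef2c/p300 list alone had 206, where the medians of the whole lists were 350 and 286. The share of Mef2c-only fragments among those of both Mef2c lists fell from 58.2% (56.6 to 59.9) in the lowest quartile of the Mef2c/MAML score, 1 to 303, to 17.9% (16.7 to 19.2) in the highest, 561 to 853. Over the quartiles of the Mef2c/p300 score it went from 43.2% (41.5 to 44.8) to 36.1% (34.5 to 37.7). These scores are the values that placed the fragments on the Mef2c lists, so they describe the fragments and support nothing.

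Both scores of a Mef2c-only fragment were only loosely related. Across the 5480 fragments Pearson's r was 0.21 and Spearman's rho 0.21, between lists that share the Dam control and the map of fragments. Length went in opposite directions with the scores, at a rho of -0.28 for Mef2c/MAML and 0.16 for Mef2c/p300. Many fragments held the same score. The 20 commonest values took 24.0% of the Mef2c/MAML scores and 33.6% of the Mef2c/p300 scores of Mef2c-only fragments, near the 26.2% and 34.9% of the whole lists. The values were 9.99% and 13.9% for the N1-sharing fragments, and 43.8% and 56.4% for those of the Mef2c/MAML and Mef2c/p300 lists alone. The commonest Mef2c/p300 score, 148, belonged to 192 of the Mef2c-only fragments, and 3305 of the 5480 had a pair of scores that at least 1 other also had. Total FAIRE held 4.9% (4.19 to 5.69) of these 3305 and 10.9% (9.57 to 12.2) of the 2175 whose pair of scores was their own. The depth per library is unknown, and its part in the repeated scores was not tested.

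At the edge of the rule, the lowest Mef2c/MAML score among Mef2c-only fragments was 1, at 90340213 to 90340740 on chromosome 2, and the lowest Mef2c/p300 score was 3, at 17112516 to 17113041 on chromosome 1. Just outside it stood 4 fragments of both Mef2c lists with an N1 score of 1 in a single N1 list. The fragment from 18613881 to 18614410 on chromosome 2 had N1/p300 at 1 beside Mef2c scores of 583 and 125, and 88399246 to 88399791 on chromosome 3 had N1/RBP at 1 beside 276 and 294. In all, 1943 fragments of both Mef2c lists stood in exactly 1 N1 list: N1/RBP for 779, N1/N1 for 607, N1/p300 for 464 and N1/MAML for 93. Their median N1 scores, 241, 218, 265 and 250, lay below the medians of those whole lists, 332, 285, 342 and 366.

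Lengths were intermediate. Mef2c-only fragments had a median of 544 bp (quartiles 470 and 643), between the 448 bp of fragments in the Mef2c/MAML list alone and the 674 bp of those in the Mef2c/p300 list alone, and close to the 584 bp of the N1-sharing ones. The longest, 48603196 to 48605260 on chromosome 14, measured 2065 bp and scored 117 with MAML and 370 with p300.

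Open chromatin, which the rule did not use, was less common at Mef2c-only fragments than over all listed fragments. That background holds only marked fragments, those of N1 included, and open chromatin at unmarked sites was not counted. Total FAIRE overlapped 398 of the 5480 by 1 bp or more, 7.26% (6.59 to 7.98), against a background of 19.3% of all 96405 fragments. The share was 3.81% where at least 50% of the shorter region had to be covered, 3.74% by the centre of the fragment and 3.38% with FAIRE regions from the median MACS score up. No background was counted under these stricter rules, so these shares cannot be set against the 19.3%. By the overlap of 1 bp or more, total FAIRE held 3688 of the 8625 N1-sharing fragments, 42.8% (41.7 to 43.8), a difference of -35.5 points (Newcombe 95% interval -36.7 to -34.2). The difference was -22.8 points with FAIRE regions from the median MACS score up. The share rose at each further N1 list among fragments of both Mef2c lists: 20.4% (18.7 to 22.3) in 1 N1 list, 31.9% (29.8 to 34.1) in 2, 44.3% (42.0 to 46.5) in 3 and 63.5% (61.8 to 65.3) in all 4. Here the number of N1 lists and the number of all lists that hold a fragment rise together and cannot be told apart. Fragments in 1 or more N1 list and no Mef2c list had 20.5% (20.1 to 21.0), near the background. Presence of a single N1 score already went with a share close to the background, whichever N1 list it was: 22.6% (19.7 to 25.7) for N1/RBP alone, 21.1% (17.9 to 24.6) for N1/N1, 19.4% (11.9 to 28.9) for N1/MAML and 16.2% (12.9 to 19.8) for N1/p300. Both FAIRE lists are taken from their initials to be of N1wt cells, so open chromatin in cells that carry the Mef2c fusions is not described by them.

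**Figure D2:**
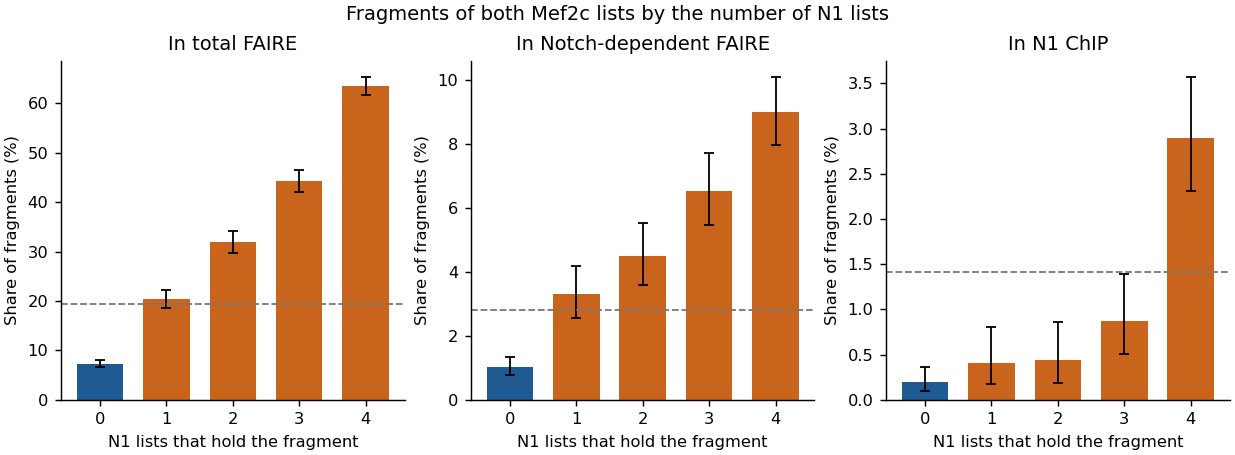
Share of fragments of both Mef2c lists that overlap total FAIRE, Notch-dependent FAIRE and N1 ChIP (vertical axes, %), by the number of N1 lists that also hold the fragment. Blue bars are the Mef2c-only fragments, error bars are exact 95% intervals over fragments and dashed lines are the shares of all 96405 fragments; total FAIRE goes from 7.26% with no N1 list to 63.5% with all 4.

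Marking by both Mef2c pairs did not go with more open chromatin than marking with MAML alone. Among fragments in no N1 list, total FAIRE held 8.7% (8.34 to 9.07) of the 22724 in the Mef2c/MAML list alone and 2.89% (2.6 to 3.21) of the 11782 in the Mef2c/p300 list alone. The share for Mef2c-only fragments of both lists, 7.26%, lay between them, and its interval did not reach either value.

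The share stayed below that of the N1-sharing fragments in every quartile of score and length. In the lowest quartile of the Mef2c/MAML score 5.2% (4.28 to 6.25) of the Mef2c-only fragments lay in total FAIRE, against 34.7% (32.2 to 37.2) of the N1-sharing ones, and in the highest quartile the values were 11.6% (9.16 to 14.3) and 50.8% (49.0 to 52.7). The share thus went up with the Mef2c/MAML score in both classes. With the Mef2c/p300 score it did not: Mef2c-only fragments had 7.76% (6.47 to 9.22) in the lowest quartile and 6.3% (5.03 to 7.78) in the highest, while the N1-sharing ones had 41.1% and 41.0%. In quartiles 2 and 3 of that score the N1-sharing share was higher, 42.6% (40.4 to 44.7) and 46.2% (44.1 to 48.3). The Mef2c-only share there was 7.41% and 7.46%. Over quartiles of length the Mef2c-only share stayed between 5.59% and 8.71%, and the N1-sharing one between 41.7% and 45.5%.

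**Figure D3:**
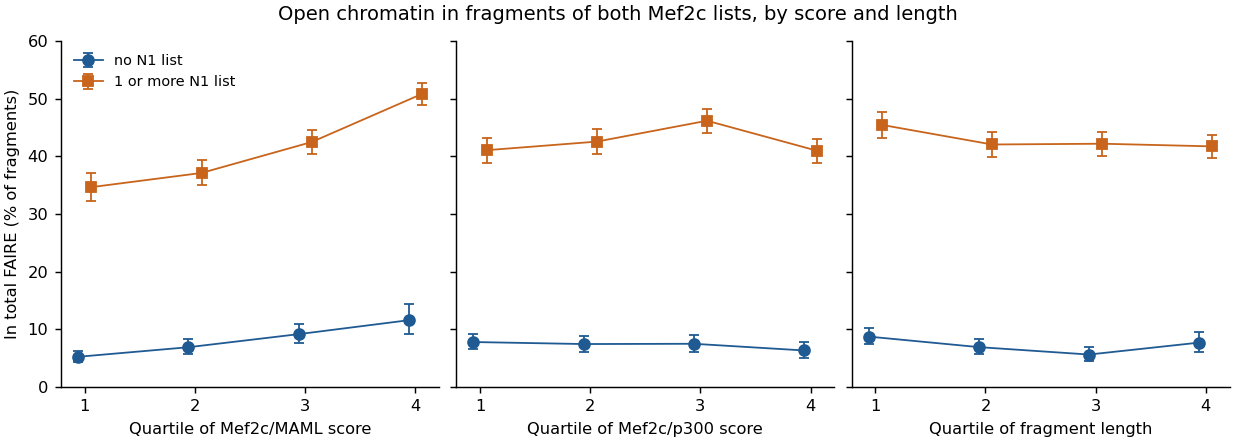
Share of fragments of both Mef2c lists in total FAIRE (vertical axis, %) by quartile of the Mef2c/MAML score, the Mef2c/p300 score and the length, with exact 95% intervals over fragments. Mef2c-only fragments (circles) stay between 5.2% and 11.6% in every quartile and N1-sharing fragments (squares) between 34.7% and 50.8%.

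On each chromosome the order was the same. The share in total FAIRE was lower for Mef2c-only than for N1-sharing fragments on 20 of 20 chromosomes, with ranges of 4.3 to 15.2% and 29.4 to 52.4% that did not overlap. Chromosome 13 gave the highest value, 37 of 244 Mef2c-only fragments, and chromosome 1 the next, 9.55%. On chromosome 13 the N1-sharing share, 45.6%, was inside the range of the others. Chromosome 9 gave the lowest Mef2c-only share, 12 of 279.

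**Figure D4:**
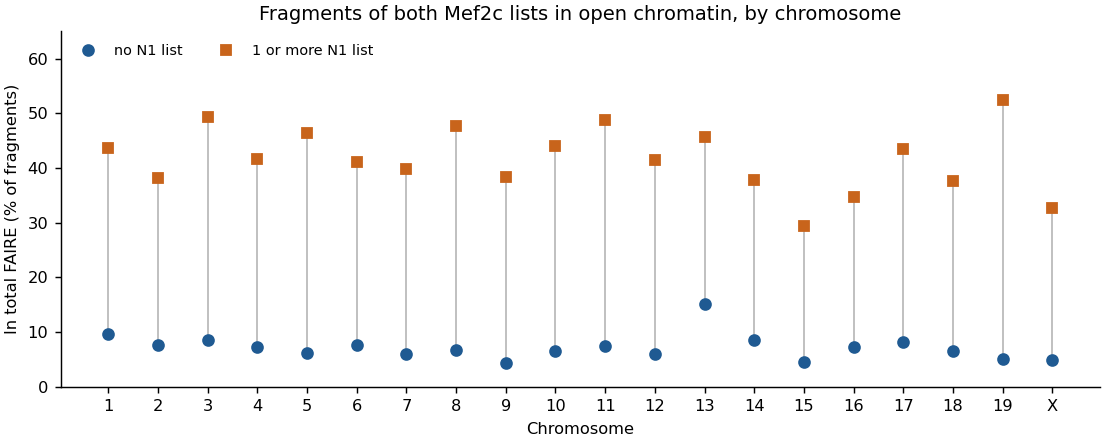
Share of fragments of both Mef2c lists in total FAIRE (vertical axis, %) on each chromosome. Circles are Mef2c-only fragments and squares are N1-sharing fragments, and the circle lies below the square on 20 of 20 chromosomes, with chromosome 13 the highest circle at 15.2%.

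Where Mef2c-only fragments did meet open chromatin, the region often covered only part of the fragment. A median of 52.6% of the fragment was covered by the FAIRE region, against 95.1% for N1-sharing fragments, and 68 of the 398 (17.1%) were covered in full, against 1728 of 3688 (46.9%). The 398 lay in 383 FAIRE regions. An N1 fragment also lay in 229 of those regions (59.8%), near the 56.5% of all FAIRE regions that hold one, and these 229 had a median MACS score of 163 and a median length of 1203 bp. The other 154 held no N1 fragment and had a median score of 129 and a median length of 769 bp, against 157 and 903 bp for all 19353 regions. Counted by fragment, 235 of the 398 (59.0%, 54.0 to 63.9) shared their open region with an N1 fragment.

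Notch-dependent FAIRE is a shorter deposited list, and how Notch dependence was decided is not given in the labels. It held 56 Mef2c-only fragments, 1.02% (0.773 to 1.32), against 2.8% of all fragments and 6.19% (5.69 to 6.72) of the N1-sharing ones, a difference of -5.17 points (Newcombe 95% interval -5.75 to -4.59). Fragments of the Mef2c/MAML list alone had a like share, 1.08% (0.952 to 1.23). The Mef2c-only share was 0.511% where at least 50% of the shorter region had to be covered, 0.493% by the centre of the fragment and 0.639% with FAIRE regions from the median MACS score up, and the difference was then -4.43, -4.33 and -3.28 points. The 2.8% of all fragments was not counted under these stricter rules. The Mef2c-only share was the lower on 20 of 20 chromosomes, and chromosomes 14 and 16 had none. Once in open chromatin, the shares lay within each other's intervals: of fragments in total FAIRE, the Notch-dependent list also held 13.6% (10.4 to 17.3) of the Mef2c-only ones, 14.2% (13.1 to 15.4) of the N1-sharing ones and 14.0% (13.5 to 14.5) of all. Of the 53 Notch-dependent regions with a Mef2c-only fragment, 31 (58.5%) also held an N1 fragment and 22 did not, where 64.6% of all Notch-dependent regions held one.

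The best scored Mef2c-only fragments in Notch-dependent regions were few and scattered. The fragment from 90548195 to 90548786 on chromosome 1 scored 590 with MAML and 530 with p300, in a region of MACS score 178, and its nearest N1 fragment was 6545 bp away. The fragment from 41444046 to 41444554 on chromosome 15 scored 577 and 544, in a region of score 243, and was 96338 bp from the nearest N1 fragment. The fragments 32332688 to 32333183 on chromosome 18 and 133009190 to 133009741 on chromosome 1 scored 580 and 533 with MAML and 451 and 432 with p300, with an N1 fragment at 266 and 867 bp. The fragment 173278162 to 173278721 on chromosome 2, at scores of 515 and 554, abutted an N1 fragment.

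N1 ChIP held 11 Mef2c-only fragments, 0.201% (0.1 to 0.359), against 1.41% of all fragments and 1.36% (1.12 to 1.62) of the N1-sharing ones, a difference of -1.16 points (Newcombe 95% interval -1.44 to -0.882). Among fragments from the median of both Mef2c scores up the difference was -0.618 points. The Mef2c-only share was the lower on 18 of 20 chromosomes; on chromosomes 14 and 18 it was 0.568% and 0.5%, from 1 fragment each, where no N1-sharing fragment lay in ChIP. Fragments of both Mef2c lists in 1 and 2 N1 lists had 0.412% (0.178 to 0.81) and 0.437% (0.189 to 0.86) in ChIP. Both intervals held the Mef2c-only share. In 3 N1 lists the share was 0.873% (0.509 to 1.39), and in all 4 it was 2.89% (2.31 to 3.57). Of the 117 N1-sharing ones in ChIP, 84 stood in all 4. Fragments of the Mef2c/MAML list alone had 0.686% (0.583 to 0.803), and those of Mef2c/p300 alone 0.0594% (0.0239 to 0.122). All 11 ChIP regions with a Mef2c-only fragment had the same ends as the fragment. Of these 11 fragments 6 abutted an N1 fragment, and 3 lay in total FAIRE. Among all Mef2c-only fragments these shares were 10.3% and 7.26%. The deposited ratios of ChIP to input of the 11 ran from 10.2 to 39.4, with a median of 14.0, near the 15 for the list. The input stood at the fixed value of 0.1 in 9 of the 11 and in 20102 of all 22306 ChIP regions. The highest ratio belonged to 12819608 to 12820007 on chromosome 15, with Mef2c scores of 412 and 489. The best scored of the 11, 139857882 to 139858308 on chromosome 5, had Mef2c scores of 567 and 429 and a ratio of 24.6, and 23622702 to 23623182 on chromosome 13 had 664 and 423 and a ratio of 17.0.

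Many Mef2c-only fragments lay near N1 marks without sharing a fragment with them. The median distance to the nearest N1 fragment was 5001 bp (order-statistic 95% interval 4639 to 5366), 63.9% lay within 10 kb and 92.2% within 50 kb. An N1 fragment directly abutted 563 of them, 10.3% (9.48 to 11.1). Fragments of the Mef2c/MAML list alone had a like median, 4815 bp (4607 to 5028), and those of the Mef2c/p300 list alone lay farther off, at 9925 bp (9479 to 10316). The nearest total FAIRE region was at a median of 17160 bp from Mef2c-only fragments and 660 bp from N1-sharing ones. For fragments of the Mef2c/MAML and Mef2c/p300 lists alone that median was 17421 and 27821 bp.

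Open chromatin at Mef2c-only fragments went with the distance to N1. Of those that abutted an N1 fragment 17.4% (14.4 to 20.8) lay in total FAIRE, of those 2 bp to 1 kb away 14.7% (12.6 to 17.0), from 1 to 5 kb 4.75% (3.58 to 6.15), from 5 to 20 kb 3.59% (2.72 to 4.63) and from 20 to 100 kb 2.89% (1.96 to 4.1). The 140 beyond 100 kb gave 5% (2.03 to 10.03). Thus 251 of the 398 in open chromatin, 63.1% (58.1 to 67.8), lay within 1 kb of an N1 fragment, where 29.2% of all Mef2c-only fragments lay. The same held for 37 of the 56 in Notch-dependent FAIRE and 8 of the 11 in N1 ChIP. Fragments beyond 1 kb had a total FAIRE share of 3.79% (3.21 to 4.44). The interval of the abutting ones held the background share of all fragments. The same fall with distance was seen in fragments of the Mef2c/MAML list alone, from 21.3% (19.8 to 22.8) to 2.27% (1.39 to 3.48).

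**Figure D5:**
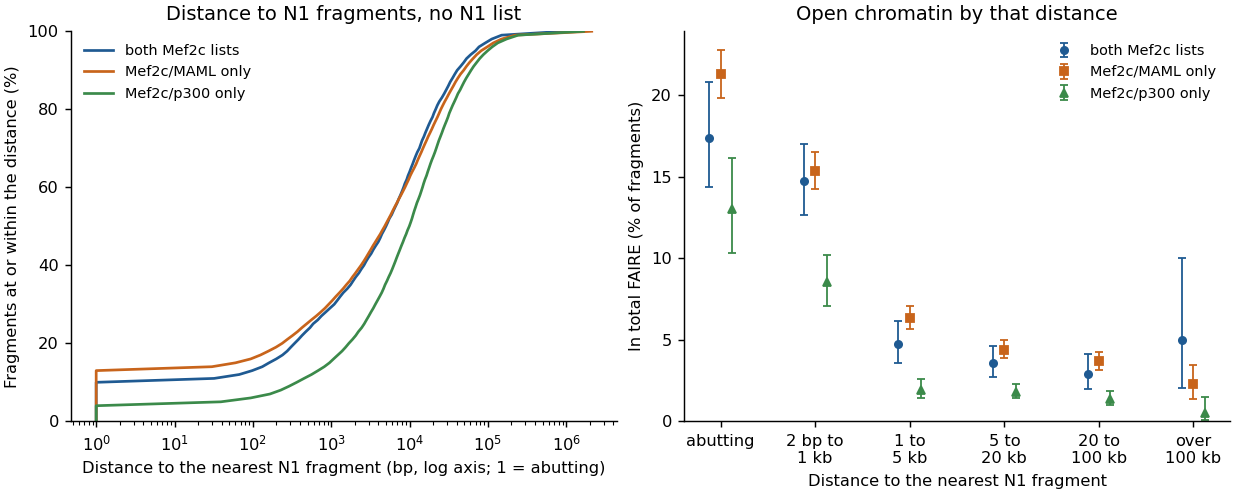
Left, share of fragments (vertical axis, %) at or within a distance to the nearest N1 fragment (bp, log axis) for fragments in no N1 list; right, share in total FAIRE (%) by that distance, with exact 95% intervals over fragments. The Mef2c-only curve (both Mef2c lists) runs beside that of the Mef2c/MAML list alone, and its FAIRE share goes from 17.4% at abutting fragments to 2.89% at 20 to 100 kb.

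On the map of fragments, most sides of the Mef2c-only fragments had no listed neighbour. Of the 10960 sides of the 5480 fragments, 9261 (84.5%) had no listed fragment next to them. Another Mef2c-only fragment stood on 370 sides, a fragment of the Mef2c/MAML list alone on 500, and one of the Mef2c/p300 list alone on 250. Another Mef2c-only fragment abutted 359 of them, 6.55% (5.91 to 7.24), while 13.8% (13.03 to 14.5) of the N1-sharing fragments abutted one of their own class, as did 7.72% (7.38 to 8.08) of those of the Mef2c/MAML list alone and 3.65% (3.32 to 4.0) of those of the Mef2c/p300 list alone. These classes hold 5480, 8625, 22724 and 11782 fragments in that order, and the shares were not adjusted for class size. With a gap of up to 1 kb, 13.7% of the Mef2c-only fragments neighboured another. Any listed fragment abutted 28.4% (27.3 to 29.7) of the Mef2c-only fragments, against 24.2% and 14.2% in those single lists and 47.1% of the N1-sharing ones. Joined end to end they formed 5121 single fragments, 163 pairs and 11 runs of 3, with no longer run. The longest run, 1842 bp from 106971853 to 106973694 on chromosome 8, had Mef2c/MAML scores of 601 to 672 and Mef2c/p300 scores of 424 to 657. The run from 90949124 to 90950854 on chromosome 6 had 139 to 658 and 424 to 674, and 105609759 to 105611315 on chromosome 3 had 557 to 647 and 509 to 604. Runs from 160928126 to 160929827 on chromosome 2 and 93304331 to 93305922 on chromosome 3 completed the 5 longest. All 5 lay outside FAIRE, at 3813 to 58890 bp from the nearest region, and 359 to 16079 bp from an N1 fragment. Total FAIRE held only 7.26% of all Mef2c-only fragments.

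Along the chromosomes the counts of Mef2c-only fragments rose with those of all listed fragments, which include them. Of the 2388 windows of 1 Mb with a listed fragment 1584 held a Mef2c-only fragment, with a median of 1, and across windows the counts of Mef2c-only and of all fragments had a Spearman's rho of 0.77. The densest windows were 4 on chromosome 15. That from 12000001 to 13000000 held 54 Mef2c-only fragments of 352, from 10000001 to 11000000 there were 33 of 281, from 8000001 to 9000000 there were 32 of 220 and from 11000001 to 12000000 there were 30 of 300. Picked for high counts, these windows had a Mef2c-only share of 15.3%, 11.7%, 14.5% and 10% of listed fragments. By chromosome that share ran from 4.42% on chromosome 7 to 6.97% on chromosome 15. In these 4 windows total FAIRE held 3 of 149 Mef2c-only fragments, 2.01% (0.417 to 5.77), and 41 of all 1153, 3.56% (2.56 to 4.79). N1 ChIP also held 3 of these 149, 2.01% (0.417 to 5.77), which are 3 of the 11 Mef2c-only fragments in ChIP, and 29 of all 1153, 2.52% (1.69 to 3.59). Without these windows the ChIP share of Mef2c-only fragments was 0.15%, an alternative chosen after seeing the data. By chromosome, Mef2c-only fragments made up from 32.9% of the fragments of both Mef2c lists on chromosome 7 to 46.7% on chromosome X.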

How the data were processed

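The members, lists and classes were chosen with earlier results of these data known. The submitters' processing notes name the build mm9; the aligner and its version are not given in the labels or headers. SpDamID values are the deposited whole-number score of each complex over Dam, per the file headers. Lists were matched to complexes, and FAIRE lists to N1wt, by initials. FAIRE peaks carry the deposited MACS score, per the file headers, and 1 was added to their starts. For ChIP the deposited signal of ChIP, the signal of input and their ratio were read, with the columns told apart by the quotient. The depth per library is unknown.

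Overlap was 1 bp or more; abutting fragments have ends 1 base apart. Shares and distances were computed with Python 3.11.15, pandas 2.3.3 and scipy 1.17.1. The overlap functions, tested on simulated data, gave 0 differences from a plain loop over 900 regions. Named regions are the 10 members with the best lower percentile of both Mef2c scores, the 5 longest runs, the 5 best scored of N1 ChIP and of Notch-dependent FAIRE, and the extremes of length and score; other positions were chosen after their values were seen. No mm9 genome or annotation was used here, so the planned genes, sequences and motifs were left out. Alternatives were other overlap rules, score, length and list filters and, added after the data were seen, leaving out dense places.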

Additional observations from a re-analysis of the deposited data

How the results depend on the processing

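All 27 alternative values of the differences between Mef2c-only and N1-sharing fragments stayed negative. Of the 78 alternative values of all results, 56 stayed within the interval of the main value. For the number of fragments the bound was 1.5 times of the main value instead. Several of the 27 and of the 56 could hardly move. Other overlap rules and the ChIP length filter left the ChIP values at 0.201% and -1.16 points. All 11 ChIP regions share their ends with the fragment. The stretch of chromosome 13 holds only 7 of the 5480 fragments. When at least 50% of the shorter region had to be covered, the shares of Mef2c-only fragments in total and Notch-dependent FAIRE were 3.81 and 0.511%, with differences of -30.5 and -4.43 points; by the centre of the fragment they were 3.74 and 0.493%, with -30.2 and -4.33 points. With FAIRE regions from the median MACS score up they were 3.38 and 0.639%, with -22.8 and -3.28 points. Fragments from the median of both Mef2c scores up gave 8.23% in total FAIRE, a ChIP difference of -0.618 points and 5.38% abutting another. Without asking for absence from N1/RBP or from N1/N1 the total FAIRE share was 9.17 and 8.64%. Without fragments that have an N1 fragment within 1 kb, 3878 were left, with 3.79% in total FAIRE, 0.49% in Notch-dependent FAIRE, 0.0774% in ChIP and a median of 10350 bp to N1, which this choice raises by construction. A gap of up to 1 kb made 13.7% neighbours of another. Leaving out the 4 dense windows of chromosome 15 or the stretch of chromosome 13, both added after the data were seen, moved no share out of its interval. No paired analysis was possible because each list holds 1 value per fragment over all libraries of a complex. Planned motif and gene counts were not run, for want of a reference of the build of the files.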
